A study of Mus musculus with 8 samples.

Results

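The 10 genes described here encode secreted signals by which stromal cells draw in and sustain leukocytes: the CC chemokines Ccl2, Ccl7, Ccl5 and Ccl20, the CXC chemokines Cxcl1, Cxcl5 and Cxcl10, the colony-stimulating factors Csf1 and Csf2, and the cytokine Il6. They were measured by 12 probes, which are every non-control probe carrying 1 of these names in the scanner tables, out of 41174 non-control probes. Ccl5 and Ccl7 had 2 probes each, and the probes of Ccl2, Csf1, Csf2 and Il6 were printed in 10 spots per array. All 10 genes passed the filter on low signal and were among the 14473 genes tested. Ccl20 and Csf2 passed it through the Cy5 channel of the heavy polysome arrays alone.

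Cultured stromal cells from lymph nodes of BALB/c mice, called LNSC in the labels, were transfected with an siRNA to Eif4g3 or with a control siRNA, 400 pmol per transfection by Lipofectamine 2000. Eif4g3 encodes a scaffold protein of the complex that brings ribosomes to capped mRNAs. The medium was replaced after 24 h, the cells were collected after 48 h, 7 plates were used per siRNA, and the cells for polysome gradients were pooled. On each 2-colour array RNA of Eif4g3 siRNA cells was labelled with Cy5 and RNA of control siRNA cells with Cy3, on 4 arrays of total RNA and on 4 arrays of RNA from the heavy polysome part of a sucrose gradient, where transcripts carry many ribosomes. The labels name no age or sex of the mice, no untransfected cells and no stimulus, and do not say whether the replicates were separate cultures, so the p-values may measure technical spread alone. Dyes were not swapped, so within a fraction the dye and the siRNA cannot be told apart. An equal mass of RNA, 200 ng, was labelled each time, so each value is relative to the rest of its sample, and in a bulk sample fewer cells of a type and less RNA per cell cannot be told apart.

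Chemokines bind receptors coupled to G proteins on leukocytes and set the direction in which these cells move. Ccl2 and Ccl7 attract monocytes, Cxcl1 and Cxcl5 attract neutrophils, and Cxcl10 is induced by interferons and attracts activated T cells. In stromal cells most of these genes are switched on through NF-kB and related factors, and many of their mRNAs are short-lived because of AU-rich elements near their 3′ end.

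The promoters of 6 of the 10 genes were in the RefSeq promoter table (GRCm38.p6). Cxcl5, which had the widest ratio, was not among them, nor were Ccl2, Ccl5 and Ccl7. The 250 bases before the start of 3 of the 6 are printed here because their genes gave the extremes among these 6. Il6 and Cxcl1 stood high together in the control channel of 1 array, and Cxcl10 had ratios on the opposite side of 0. The windows are chr5:30012864-30013113 on the plus strand, chr5:90890995-90891244 on the plus strand and chr5:92348890-92349139 on the minus strand, each written 5′ to 3′ toward the start of its gene. Capitals mark matches on either strand to the NF-kB consensus, to the core of the interferon-stimulated response element (ISRE, GAAA and again GAAA with any 2 bases between them) and to the AP-1 motif (TGANTCA).
Il6: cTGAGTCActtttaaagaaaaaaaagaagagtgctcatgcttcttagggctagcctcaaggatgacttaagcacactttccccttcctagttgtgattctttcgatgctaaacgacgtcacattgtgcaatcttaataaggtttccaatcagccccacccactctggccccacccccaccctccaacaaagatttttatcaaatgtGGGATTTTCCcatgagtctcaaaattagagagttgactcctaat
Cxcl1: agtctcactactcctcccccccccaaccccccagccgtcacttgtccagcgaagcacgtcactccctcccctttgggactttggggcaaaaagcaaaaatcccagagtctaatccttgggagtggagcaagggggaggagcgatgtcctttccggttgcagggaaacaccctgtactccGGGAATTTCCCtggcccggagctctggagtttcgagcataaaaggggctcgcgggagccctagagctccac
Cxcl10: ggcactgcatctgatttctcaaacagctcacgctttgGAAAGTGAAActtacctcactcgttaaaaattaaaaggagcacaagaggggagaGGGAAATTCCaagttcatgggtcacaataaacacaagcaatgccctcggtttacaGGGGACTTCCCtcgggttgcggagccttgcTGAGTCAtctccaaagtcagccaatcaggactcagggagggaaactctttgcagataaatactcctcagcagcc
The NF-kB consensus lay 44 to 35 bases before the start of Il6 and 71 to 61 bases before that of Cxcl1, where matches on the 2 strands overlap by all but 1 base at each end. Cxcl10 held it 159 to 150 and 104 to 94 bases before its start, with overlapping matches in the latter place. An ISRE core lay 213 to 204 bases before the start of Cxcl10, an AP-1 motif 74 to 68 bases before it, and another AP-1 motif 249 to 243 bases before the start of Il6. Ccl20 and Csf1 also held the NF-kB consensus, so 5 of 6 member promoters had it, against 7.25% of 32851 promoter windows of the same length. The ISRE core was in 1 of the 6 and in 2.98% of all windows, and the AP-1 motif in 2 of the 6 and in 6.75%. These matches describe letters in the windows and were not tested for binding.

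Each sentence names its quantity, either the log2 ratio of Eif4g3 siRNA cells to control cells or a log2 intensity normalized within and between arrays, and means are given ± the SD of 4 arrays. Adjusted p-values come from limma over all 14473 genes with Benjamini-Hochberg adjustment, a gene being called below 0.05, and intervals are limma's 95% confidence intervals. The targeted gene itself was lower on all 8 arrays, with a mean ratio of -2.07 ± 0.29 (adjusted p from limma = 0.00197) in total RNA and -2.46 ± 0.50 (adjusted p = 6.06e-04) in the heavy polysomes. The share of spots well above background ran from 38.4% to 58.0% in Cy3 and from 43.8% to 54.0% in Cy5. All 10 stromal markers, among them Pdpn, Pdgfra, Thy1 and Col1a1, were well above background on every array. Of 12 macrophage markers, Spp1, Trem2, Lyz2, Csf1r, Cd14 and Cd68 were above background on all 8 arrays, whereas Ptprc, Adgre1, Itgam, Laptm5 and Ctss were on 0 arrays in either channel. Pecam1, Lyve1, Ms4a1, Cd79a, Cd8a and Cdh1 were at 0 arrays too, and Kdr of 7 endothelial and Krt8 and Krt18 of 4 epithelial markers passed the filter.

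Heavy polysome array 1 stood apart from the other 3 heavy polysome arrays for these genes, and the mean heavy polysome ratio of each member is given with and without it. On it 9 of the 10 members had ratios below 0 and 5 lay beyond 1 log2 unit, against 7.03% of all tested genes on that array. The median member ratio was -0.96 there and -0.07 to -0.17 on heavy polysome arrays 2 to 4. It also had the lowest share of spots above background in Cy3, 38.4%, and the lowest mean correlation of ratios with the other arrays of its fraction, 0.289 across genes. Heavy polysome array 3 (0.318) and total RNA array 4 (0.327) were close to it in that correlation, and the remaining arrays had 0.410 to 0.566. On total RNA array 4, 6.79% of all tested genes lay beyond 1 log2 unit, so over all genes array 1 was not alone. Array 2 lay on the same slide. The part of these array properties in the member ratios was not tested.

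Ccl2, Ccl7 and Ccl5 are the monocyte- and T cell-attracting CC chemokines, and Ccl2 was well above background in both channels of all 8 arrays. The Ccl2 ratio was 0.21, -0.57, -0.17 and -0.93 on total RNA arrays 1 to 4. It was -1.46, -0.24, -0.59 and -0.18 on heavy polysome arrays 1 to 4, so 7 of 8 arrays lay below 0 and total RNA array 1 lay above it. The mean was -0.37 ± 0.50 (interval -0.87 to 0.14, adjusted p from limma = 0.382) in total RNA and -0.62 ± 0.59 (interval -1.13 to -0.11, adjusted p = 0.125) in the heavy polysomes, neither past the threshold. Without heavy polysome array 1 the heavy polysome mean was -0.34 (interval -0.78 to 0.11, adjusted p = 0.320). With the slide as a random block over all arrays the heavy polysome mean passed, at 0.0437, where 8.22% of genes were called lower. That setting called more genes than the fit without the block (2591 against 1291 in heavy polysome RNA), so passing in it is not a stricter test. Control cells had Ccl2 intensities of 14.85, 15.09, 13.88 and 14.54 in total RNA, and in the heavy polysomes 16.14, 15.11, 14.43 and 15.44, highest on the array that stood apart.

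Ccl7 lies beside Ccl2 in a chemokine cluster on chromosome 11, and the 2 genes' nearest probes were 9.80 kb apart (mm8, chr11:81853343-81853402 for Ccl2 and chr11:81863197-81863256 for Ccl7, both on the plus strand). Both Ccl7 probes were above background on all arrays in both channels. The brighter probe, at chr11:81863349-81863408, gave ratios of 0.16, -0.63, -0.31 and -0.41 in total RNA, and in the heavy polysomes -0.02, -0.11, -0.91 and -0.17. Its means were -0.30 ± 0.33 (adjusted p from limma = 0.323) and -0.30 ± 0.41 (adjusted p = 0.287), with total RNA array 1 again the only array above 0. The latter was -0.39 without heavy polysome array 1 (interval -0.81 to 0.02). The dimmer probe gave -0.45, -0.55, -0.50 and -0.26 in total RNA, and in the heavy polysomes -0.11, -0.40, -0.06 and -0.23, below 0 on all 8 arrays. When every probe was tested on its own, this probe fell in total RNA, by 0.44 on the log2 scale (SD 0.12, adjusted p from limma = 0.0320), where 2.51% of 21396 probes were called lower. The 2 probes thus differed on total RNA array 1 and on heavy polysome array 3, and the call rests on 1 of them.

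Ccl5, a chemokine for T cells and monocytes, differed more between replicate arrays than between siRNAs. Its brighter probe had control intensities of 10.96, 10.29, 9.75 and 13.03 in total RNA (arrays in order, as for the other series of values), whereas the heavy polysomes gave 12.32, 8.77, 8.90 and 12.06. Eif4g3 siRNA cells followed them, least so on heavy polysome array 1, with 10.77, 10.72, 9.35 and 12.80 in total RNA, and in the heavy polysomes 10.47, 9.0, 8.91 and 11.75. The highest array exceeded the lowest 9.74-fold in control total RNA and 11.8-fold in control heavy polysome RNA. The dimmer probe, 92 bases away, showed spans of 8.43-fold and 7.36-fold. The SD of its brighter probe over arrays was larger than that of 99.2% to 99.9% of tested genes in the 4 conditions. Against this spread the ratios were small except on heavy polysome array 1: -0.19, 0.43, -0.39 and -0.23 in total RNA, and in the heavy polysomes -1.85, 0.23, 0.00 and -0.32. Their means were -0.10 ± 0.36 (adjusted p from limma = 0.889) and -0.48 ± 0.94 (adjusted p = 0.335), and the latter became -0.03 (interval -0.40 to 0.35) without heavy polysome array 1.

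Ccl20, which attracts cells bearing Ccr6, stayed near background. It was well above it on 1 of 4 total RNA and 2 of 4 heavy polysome arrays in Cy3 and on 2 and 3 of 4 in Cy5. Its ratios were 0.52, -0.07, 0.25 and 0.18 in total RNA, against -0.20, 0.11, 0.13 and 0.16 in the heavy polysomes, with means of 0.22 ± 0.24 and 0.05 ± 0.17 (adjusted p from limma = 0.280 and 0.821). The heavy polysome mean was 0.13 (interval -0.13 to 0.40) without heavy polysome array 1. A difference was not detectable at this signal.

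Cxcl1 and Cxcl5, neutrophil chemokines that share the receptor Cxcr2, gave the widest ratios on heavy polysome array 1. Their probes lie on the plus strand of chromosome 5, 132 kb apart on mm8 (chr5:91836379-91836438 for Cxcl5 and chr5:91968019-91968078 for Cxcl1). Cxcl5 ratios were -0.47, -0.70, -0.30 and -0.55 in total RNA, against -4.16, -0.99, -0.15 and -0.85 in the heavy polysomes, below 0 on all 8 arrays. The means were -0.50 ± 0.17 (interval -1.64 to 0.63, adjusted p from limma = 0.613) and -1.54 ± 1.79 (interval -2.67 to -0.40, adjusted p = 0.0938). The heavy polysome value corresponds to a 2.90-fold lower level. Without heavy polysome array 1 it was -0.66 (interval -1.02 to -0.30) and passed, with an adjusted p of 0.0363, where 4.48% of genes were called lower. With the 4 total RNA arrays fitted alone, the total RNA value passed too, with an adjusted p of 0.0431, where 2.84% of genes were called lower. That value was -0.01 with median centring in place of loess, so its size depended on how the arrays were normalized. Feature Extraction's processed signals gave -1.52 in total RNA and -2.98 in the heavy polysomes, the latter with an adjusted p of 0.0172, where 6.27% of genes were called lower (the deposited matrix gave 0.0172 too, where 6.24% were). It also passed with the slide as a random block, at 0.0403. Cxcl5 was well above background in Cy3 on 4 total RNA and 3 heavy polysome arrays and in Cy5 on 3 of each.

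The extreme Cxcl5 ratio came from the control channel. Control intensities in the heavy polysomes were 10.89, 7.31, 6.25 and 7.60 on arrays 1 to 4, so array 1 was 9.76-fold above the next, whereas Eif4g3 siRNA cells had 6.72, 6.32, 6.10 and 6.75. In total RNA the control values were 6.98, 7.86, 6.42 and 7.33 and the Eif4g3 siRNA values 6.51, 7.16, 6.12 and 6.77. Within each channel the lowest Cxcl5 value of both fractions thus lay on array 3.

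Cxcl1 followed the same pattern on heavy polysome array 1. Its control intensities there were 9.28, 6.61, 6.41 and 6.90, a 5.20-fold gap to the next array, and its Eif4g3 siRNA intensities were 6.54, 6.40, 6.55 and 6.75. Its ratios were -0.03, -0.21, -0.03 and -0.57 in total RNA, against -2.74, -0.20, 0.14 and -0.15 in the heavy polysomes. The means were -0.21 ± 0.25 (adjusted p from limma = 0.805) and -0.74 ± 1.35 (adjusted p = 0.272). Without array 1 the heavy polysome value was -0.07 (interval -0.36 to 0.22), and the total RNA value was 0.24 with median centring, on the other side of 0. Cxcl1 was well above background in both channels of all 8 arrays, but at low signal. Its Eif4g3 siRNA intensities in the heavy polysomes, 6.40 to 6.75, overlapped those of Csf2 (6.07 to 6.52), a gene near background. On heavy polysome array 1 Feature Extraction's processed log2 signals were 10.51 in the control and 5.51 in the Eif4g3 siRNA channel. These lay further apart than the normalized intensities, so the size of that ratio depended on the processing.

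Cxcl10 had the highest mean ratio of the 10 genes in both fractions. Its ratios were 0.96, 0.55, 0.49 and 1.01 in total RNA, against -0.46, 0.60, 1.01 and 1.14 in the heavy polysomes, so 7 of 8 arrays were above 0 and heavy polysome array 1 was below it. The mean was 0.75 ± 0.27 (interval 0.24 to 1.26, 1.68-fold higher, adjusted p from limma = 0.0923) in total RNA and 0.57 ± 0.72 (interval 0.06 to 1.08, adjusted p = 0.153) in the heavy polysomes. Neither passed with all 8 arrays in the fit. Without heavy polysome array 1 both passed: the total RNA value had an adjusted p of 0.0118, where 3.16% of genes were called higher, and the heavy polysome value became 0.91 (interval 0.59 to 1.24, adjusted p = 0.010), where 4.28% were. With the 4 total RNA arrays fitted alone the adjusted p was 0.0314, where 1.94% were called higher. The control intensities were 9.12, 8.34, 7.17 and 8.83 in total RNA, against 7.88, 6.65, 6.90 and 8.70 in the heavy polysomes. Eif4g3 siRNA cells had 10.08, 8.89, 7.66 and 9.84 in total RNA, and in the heavy polysomes 7.42, 7.25, 7.91 and 9.83. These levels spanned 3.87-fold to 6.01-fold between replicate arrays, more than the ratios within an array. Cxcl10 is the printed promoter with an ISRE core, and no relation between its motifs and its ratios was tested.

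**Figure D1:**
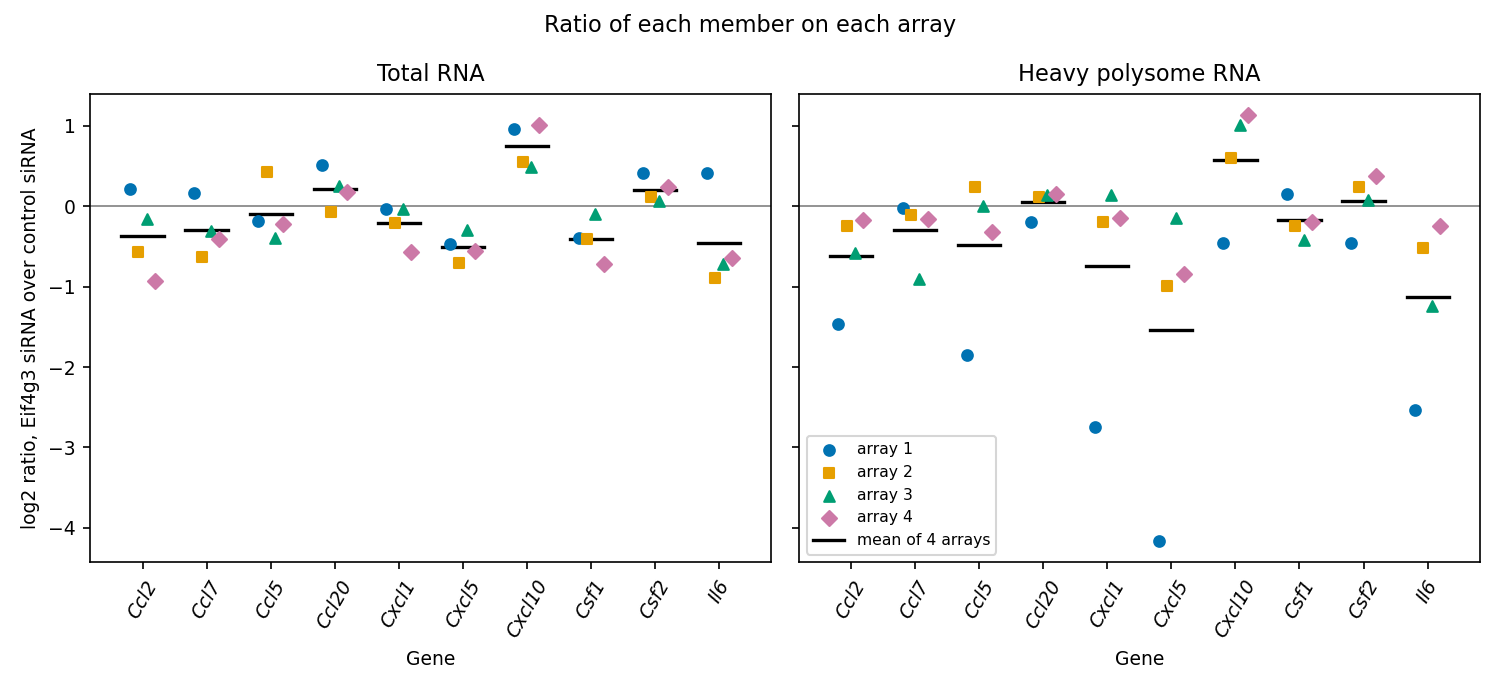
Log2 ratio of Eif4g3 siRNA over control siRNA (vertical axis) of the 10 genes (horizontal axis) on each array of total RNA (left) and heavy polysome RNA (right), with symbols for arrays 1 to 4 and a black line at their mean. Heavy polysome array 1 lies lowest for Cxcl5 (-4.16), Cxcl1 (-2.74), Il6 (-2.53), Ccl5 (-1.85) and Ccl2 (-1.46), and Cxcl10 lies above 0 on all 4 total RNA arrays.

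Csf1, the growth factor of macrophages, was well above background everywhere, and its level had an SD of 0.24 to 0.29 between replicate arrays. Its ratios were -0.40, -0.41, -0.10 and -0.72 in total RNA, all below 0, and 0.15, -0.24, -0.42 and -0.20 in the heavy polysomes, where array 1 lay above 0. The mean of -0.41 ± 0.26 in total RNA (interval -0.68 to -0.13, 1.32-fold lower) had an adjusted p from limma of 0.0908, and the heavy polysome mean of -0.18 ± 0.24 had 0.405 (-0.29, interval -0.57 to -0.01, without heavy polysome array 1). In total RNA the adjusted p was 0.0497 without heavy polysome array 1, where 5.98% of genes were called lower, and 0.0412 with the slide as a random block, where 6.48% were. The 8 to 10 spots of the Csf1 probe kept on an array differed by an SD of 0.03 to 0.12 on 7 arrays and of 0.40 on total RNA array 4, the array with the lowest ratio.

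Csf2, the granulocyte-macrophage factor, was near background, being well above it on 1 of 4 arrays of each fraction in Cy3 and on 2 and 3 of 4 in Cy5. Its ratios were 0.41, 0.12, 0.07 and 0.23 in total RNA, against -0.46, 0.24, 0.08 and 0.37 in the heavy polysomes. The means were 0.21 ± 0.15 (adjusted p from limma = 0.395) and 0.06 ± 0.36 (adjusted p = 0.817), the latter 0.23 (interval -0.01 to 0.47) without heavy polysome array 1. In heavy polysome RNA the control intensity was 6.97 on array 1 and 5.98 to 6.06 on the others, so this gene stood high there too, at low signal.

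Il6, a cytokine that signals through gp130 and Stat3, had the largest departure from 0 relative to its error in the heavy polysomes. Its ratios were 0.41, -0.89, -0.71 and -0.65 in total RNA, against -2.53, -0.52, -1.24 and -0.24 in the heavy polysomes. All 4 heavy polysome arrays lay below 0, and total RNA array 1 was the only array above it. The means were -0.46 ± 0.59 (interval -1.21 to 0.29, adjusted p from limma = 0.464) and -1.13 ± 1.02 (interval -1.89 to -0.38, 2.20-fold lower, adjusted p = 0.0675). The heavy polysome value passed when only genes above background in both channels of all arrays were tested (adjusted p = 0.0338, where 4.88% of genes were called lower) and with the slide as a random block (0.0212, where 8.22% were). Without heavy polysome array 1 it was -0.67 (interval -1.25 to -0.09, adjusted p = 0.141), 1.59-fold lower.

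The Il6 level itself moved between arrays by more than between siRNAs. Control intensities were 9.36, 11.72, 8.90 and 9.66 in total RNA, against 11.89, 9.70, 9.02 and 9.86 in the heavy polysomes. Eif4g3 siRNA cells had 9.77, 10.83, 8.19 and 9.01 in total RNA, and in the heavy polysomes 9.36, 9.17, 7.78 and 9.62. Total RNA array 2 was high in both channels, and heavy polysome array 1 only in the control channel, 4.08-fold above the next array. Total RNA array 2 was also the only array read with an older version of the scanner software, and the part of this in the Il6 level was not tested. Cxcl1, Cxcl5 and Ccl7 were highest on total RNA array 2 in both channels as well. Over the spots of a probe that were kept on an array, Il6 ratios had an SD of 0.04 to 0.50 (7 to 10 spots) and Ccl2 ratios of 0.05 to 0.52 (8 to 10 spots), the widest for both on total RNA array 4.

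**Figure D2:**
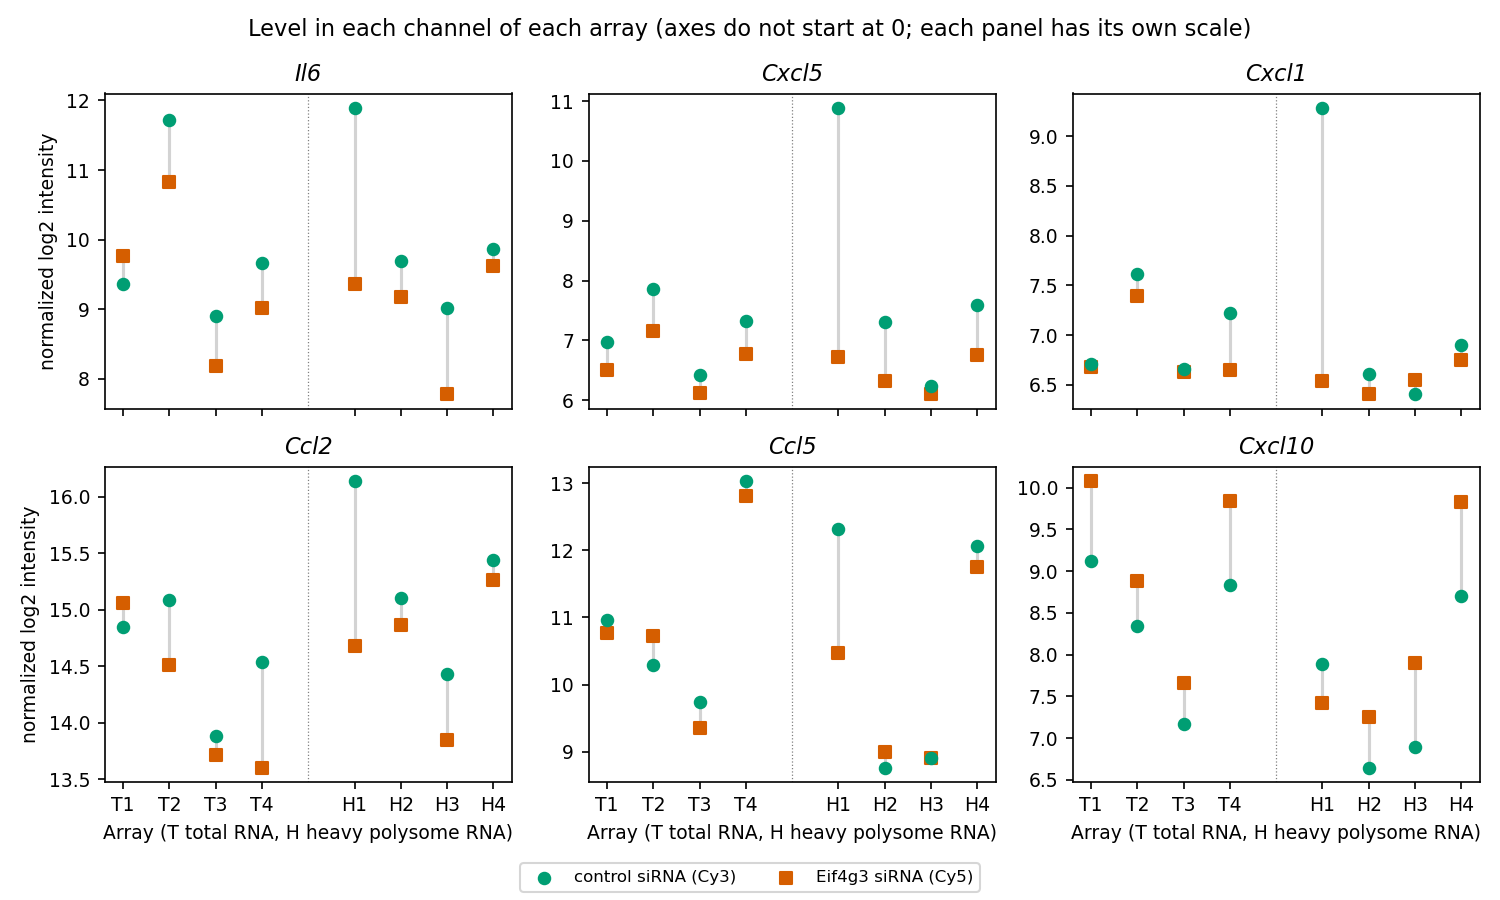
Normalized log2 intensity (vertical axis, own scale per panel) of Il6, Cxcl5, Cxcl1, Ccl2, Ccl5 and Cxcl10 on total RNA arrays T1 to T4 and heavy polysome arrays H1 to H4, with control siRNA in green circles and Eif4g3 siRNA in orange squares joined by a grey line. The control value on H1 stands high for Il6 (11.89), Cxcl5 (10.89) and Cxcl1 (9.28) while the Eif4g3 siRNA value does not. Ccl5 moves between arrays in both channels together, with its widest gap between channels on H1 (12.32 and 10.47).

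Across the 10 genes, 0 passed the threshold in total RNA, where 4.37% of all genes were called, and 0 in the heavy polysomes, where 8.92% were. In total RNA 242 genes were called higher and 391 lower (793 and 658 with Feature Extraction's processed signals, 45 and 164 with median centring). In heavy polysome RNA 706 were called higher and 585 lower (86 and 110 with median centring). Leaving out 1 array moved the first total to between 46 (without total RNA array 3) and 1323 (without heavy polysome array 1), and the other to between 337 (without heavy polysome array 4) and 1537 (without total RNA array 4). By unadjusted p under 0.05, 2 of the 10 members (Cxcl10 and Csf1) passed in total RNA, against 3195 of all 14473 genes. In the heavy polysomes 4 of the 10 (Cxcl5, Il6, Ccl2 and Cxcl10) did, against 3682 of the 14473. The median member ratio was -0.26 in total RNA and -0.39 in the heavy polysomes, against -0.04 and 0.02 over all genes. Means were below 0 for 7 members and above it for 3 in each fraction, namely Cxcl10, Ccl20 and Csf2. Of all genes 42.0% lay above 0 in total RNA and 53.2% in the heavy polysomes. Ccl20 and Csf2 passed the filter only through the Eif4g3 siRNA channel of the heavy polysome arrays, so their side of 0 is not independent of the filter. Over the alternatives 5 of the 10 (Cxcl10, Cxcl5, Csf1, Il6 and Ccl2) passed in at least 1 setting, and the other 5 in none when 1 probe stood for each gene. The share of all genes that passed in at least 1 setting was not counted, so the 5 cannot be set against it. With the slide as a random block alone, 2591 of 14473 genes were called in heavy polysome RNA, against 1291 without the block. The median ratio of the 6 macrophage markers that passed the filter was below 0 on all 8 arrays, from -0.19 to -0.97. Among them Lyz2 had ratios from -0.46 to 0.37, above 0 on most arrays. Their summed control intensity lay between 14.78 and 16.45 on the total RNA arrays and between 15.65 and 16.39 on the heavy polysome arrays. This sum of unlogged intensities was mostly Spp1, which alone had 14.68 to 16.41 and 15.59 to 16.33. The part of these markers in the member ratios was not tested.

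**Figure D3:**
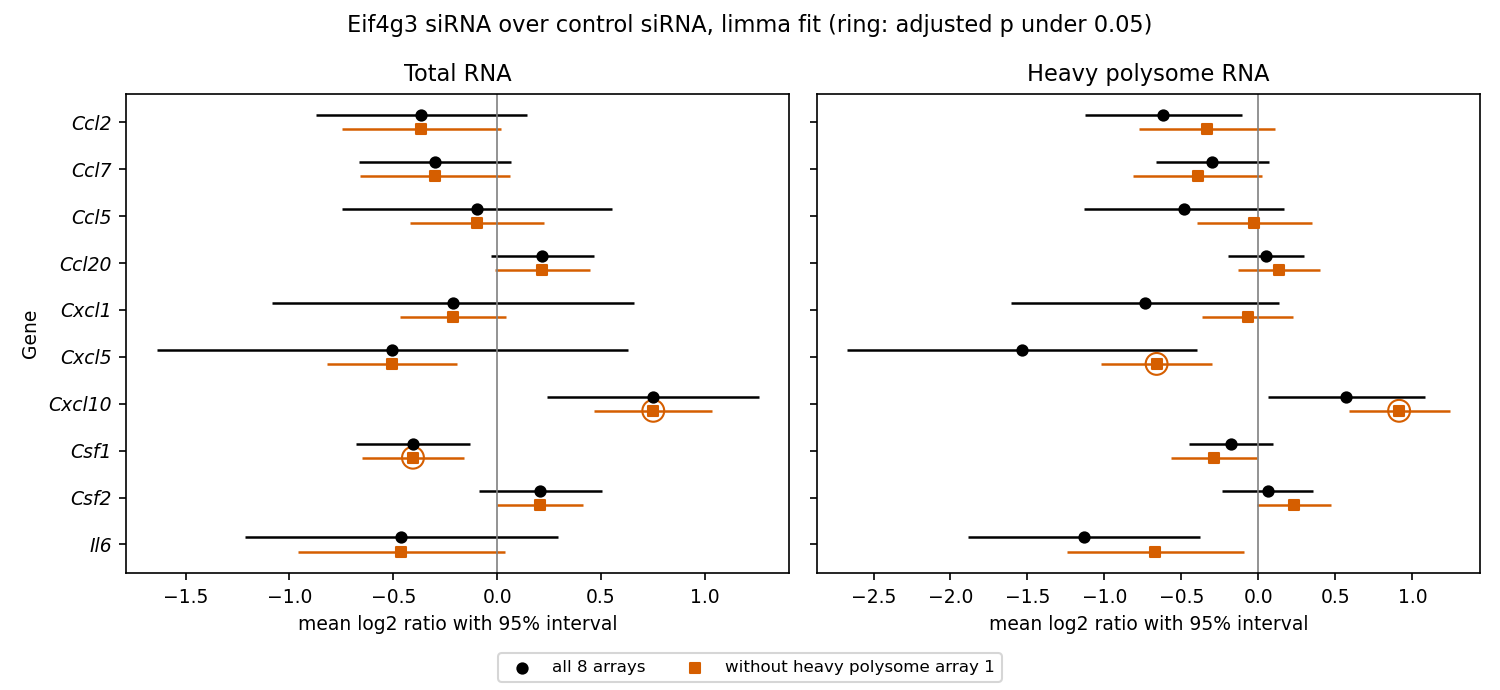
Mean log2 ratio of Eif4g3 siRNA over control siRNA with its 95% interval (horizontal axis) for each gene in total RNA and heavy polysome RNA, fitted over all 8 arrays (black) and without heavy polysome array 1 (orange), a ring marking an adjusted p under 0.05. Rings appear only without that array, for Cxcl10 in both fractions (0.75 and 0.91), Csf1 in total RNA (-0.41) and Cxcl5 in the heavy polysomes (-0.66).

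The ratio in the heavy polysomes minus the ratio in total RNA asks whether a gene's polysome RNA departed from its total RNA. It passed for 0 of the 10 members and for 0 genes in all (0% called, limma with Benjamini-Hochberg adjustment), with 0 members and 755 genes at an unadjusted p under 0.05. The differences were below 0 for 9 members, whereas 62.3% of all genes lay above 0. Among the 9 were Cxcl5 at -1.03 (interval -2.64 to 0.57), Il6 at -0.67 (interval -1.74 to 0.39) and Cxcl1 at -0.53 (interval -1.76 to 0.71). The differences of Cxcl5 and Il6 were -0.16 and -0.21 when heavy polysome array 1 was left out. Csf1 was the member above 0, at 0.23 (interval -0.16 to 0.61). Without heavy polysome array 1 the differences of Cxcl1 (0.14), Cxcl10 (0.16), Ccl5 (0.07), Ccl2 (0.03) and Csf2 (0.03) lay above 0. The lowest adjusted p among the members was 0.853. In each member the arrays of the 2 fractions overlapped, and the share of all genes for which they did was not counted. The intervals of Cxcl5, Il6 and Cxcl1 are wide enough to hold more than a 2-fold difference, so these arrays do not show equal ratios either.

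In control siRNA cells alone, heavy polysome over total RNA levels described which transcripts were relatively rich in the heavy fractions. None of the 10 passed, where 2.14% of genes were called by limma, and by unadjusted p under 0.05 the count was 0 of 10 against 1815 of all genes. Ccl2 was at 0.69 (interval -0.14 to 1.52, and 0.40 without heavy polysome array 1), Ccl7 at 0.40 (interval -0.32 to 1.12) and Csf1 at 0.29 (interval -0.13 to 0.71). Cxcl10 was at -0.83 (interval -2.0 to 0.34) and Ccl5 at -0.49 (interval -2.67 to 1.68), and Eif4g3 siRNA cells gave -1.01 for Cxcl10 and -0.88 for Ccl5. Cxcl5 stood at 0.86 with all arrays and at -0.10 without heavy polysome array 1, and Il6 at 0.21 and -0.38, so for both genes the sign differed without that array. Cxcl1 (0.25 and -0.41), Csf2 (0.08 and -0.15) and Ccl20 (0.06 and -0.05) changed sign in the same way. Ccl5 was at -1.10 without that array, but at 0.18 without total RNA array 4 and at 0.09 and 0.04 when heavy polysome array 2 or 3 was dropped. Il6 was at -0.13 without total RNA array 3.

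Each gene's 4 levels were put in order by their means. Ccl2, Ccl7 and Csf1 had the same order, with control heavy polysome RNA highest, then Eif4g3 siRNA heavy polysome RNA, control total RNA and Eif4g3 siRNA total RNA. For Csf1 these were 15.50 ± 0.26, 15.32 ± 0.29, 15.21 ± 0.24 and 14.80 ± 0.28. Cxcl1, Cxcl5 and Il6 were highest in control heavy polysome RNA and lowest in Eif4g3 siRNA heavy polysome RNA, and for Il6 the ends were 10.12 ± 1.24 and 8.98 ± 0.82. The top place of these 3 genes rested on heavy polysome array 1: without it control total RNA lay above control heavy polysome RNA, by the values given above (-0.41, -0.10 and -0.38). Cxcl10 was highest in Eif4g3 siRNA total RNA, 9.12 ± 1.1, and lowest in control heavy polysome RNA, 7.53 ± 0.94. Of the 30 gaps between neighbours in these orders, 29 were within the larger SD of the pair. The exception was the lowest step of Csf1. The SD here is that of levels between arrays. For gaps between the siRNAs within a fraction it ignores that both were measured on the same arrays. Those gaps are the mean ratios given above, and the SD of the ratios is the spread that belongs to them.

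**Figure D4:**
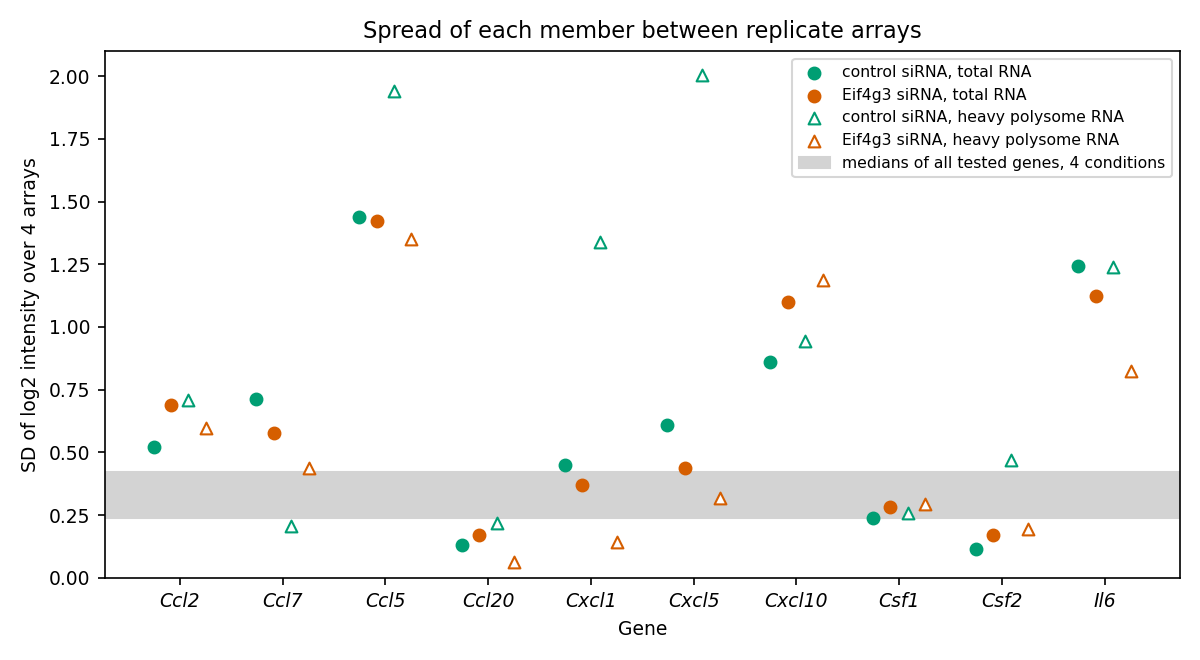
SD of the log2 intensity over the 4 replicate arrays (vertical axis, from 0) of each gene (horizontal axis) in control siRNA (green) and Eif4g3 siRNA (orange) cells, filled circles for total RNA and open triangles for heavy polysome RNA, with a grey band spanning the 4 medians over all tested genes (0.24 to 0.42). Ccl2, Ccl5, Il6 and Cxcl10 lie above the band in every condition and Ccl7 in all but control heavy polysome RNA, where Cxcl5 (2.0) and Cxcl1 (1.34) have their widest SD.

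Other genes of the same pathways were taken from 5 lists. Of 30 other chemokines 14 were tested, with 0 called by limma in total RNA (4 at an unadjusted p under 0.05) and 2 called higher in the heavy polysomes. Of all genes 8.92% were called there in either direction, and 4.37% in total RNA, and the other counts of called list genes stand against the same shares. Counts at an unadjusted p under 0.05 stand against 3195 of 14473 genes in total RNA and 3682 in the heavy polysomes. Cxcl12, the homeostatic chemokine of stroma, rose by 0.78 ± 0.47 in the heavy polysomes (adjusted p from limma = 0.0197), a call lost without heavy polysome array 2 or 4 (0.0694 and 0.0865), while the mean of its probes was 0.15. Ccl17, a T cell chemokine, rose by 0.76 ± 0.56 in the heavy polysomes (adjusted p = 0.0302). This call was lost without total RNA array 2 or 3 (0.0517 and 0.0538) or heavy polysome array 2, 3 or 4 (0.106, 0.0677 and 0.0863). Their median ratio was 0.02 in total RNA and 0.12 in the heavy polysomes. Of 22 other cytokines 21 were on the array and 12 were tested, with 0 called by limma in either fraction (1 in total RNA and 2 in the heavy polysomes at an unadjusted p under 0.05) and medians of -0.02 and 0.06.

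Of 21 receptors 12 were tested. Tnfrsf1b, a receptor of tumour necrosis factor, fell in both fractions, by 0.77 on the log2 scale in total RNA (SD 0.36, adjusted p from limma = 0.0146) and by 0.97 in the heavy polysomes (SD 0.08, adjusted p = 0.00392). It was below 0 on all 8 arrays, and its total RNA call was lost without total RNA array 2 or 3 (0.0557 and 0.0808). Csf1r, the receptor of Csf1, fell by 0.57 in total RNA (SD 0.30, adjusted p = 0.0447), with ratios of -0.48, -0.22, -0.65 and -0.94. That call was lost without total RNA array 1, 2, 3 or 4 (0.111, 0.0721, 0.157 and 0.129) or heavy polysome array 2 or 4 (0.0762 and 0.0770). Csf1r is itself 1 of the macrophage markers, and the receptor list had medians of -0.08 and -0.02.

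Of 22 inducers of transcription and their feedback regulators 21 were tested, with 0 called by limma in total RNA. There 6 had an unadjusted p under 0.05, against 3195 of 14473 genes. In the heavy polysomes 4 were called higher and 2 lower (8.92% of all genes called). The immediate-early factor Egr1 rose by 1.11 ± 0.23 in the heavy polysomes (adjusted p from limma = 0.0186), with ratios from 0.78 to 1.33. This call was lost without heavy polysome array 2, 3 or 4 (0.0669, 0.0594 and 0.0772). The stress factor Atf3 rose by 0.57 ± 0.30 (0.0332), the interferon regulatory factor Irf7 by 0.56 ± 0.23 (0.0400) and Tnfaip3, an inhibitor of NF-kB signalling, by 0.41 ± 0.24 (0.0433). Stat3, which carries the Il6 signal, fell by 0.90 (SD 0.78, adjusted p = 0.0452), with ratios of -1.96, -0.78, -0.10 and -0.78. Cebpb, an activator of the Il6 promoter, fell by 0.55 (SD 0.29, adjusted p = 0.0396). The call of Atf3 was lost when the array left out was total RNA array 2 or, among the heavy polysome arrays, 1, 2, 3 or 4 (adjusted p of 0.0542, 0.0801, 0.0843, 0.0672 and 0.0702 in that order). The call of Irf7 was lost when the array left out was total RNA array 2 or 3 or, among the heavy polysome arrays, 2, 3 or 4 (adjusted p of 0.0683, 0.0501, 0.154, 0.0674 and 0.127 in that order). The call of Cebpb was lost when the array left out was total RNA array 2 or 3 or, among the heavy polysome arrays, 1, 2 or 4 (adjusted p of 0.0617, 0.0584, 0.0994, 0.0939 and 0.122 in that order). The call of Stat3 was lost when the array left out was total RNA array 1, 2 or 3 or, among the heavy polysome arrays, 1, 2 or 4 (adjusted p of 0.0633, 0.0700, 0.0756, 0.0639, 0.107 and 0.125 in that order). The call of Tnfaip3 was lost when the array left out was total RNA array 1, 2 or 3 or, among the heavy polysome arrays, 1, 2, 3 or 4 (adjusted p of 0.0527, 0.0742, 0.0733, 0.0801, 0.103, 0.0986 and 0.0714 in that order). The Stat3 mean was -0.55 without heavy polysome array 1. With median centring in place of loess the heavy polysome calls of Cxcl12, Ccl17, Atf3, Irf7, Cebpb and Tnfaip3 were lost (adjusted p from 0.0750 to 0.326), and so was the total RNA call of Csf1r (0.0925).

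Of 14 regulators of mRNA stability 12 were tested, with 1 called higher and 1 lower in each fraction (4.37% and 8.92% of all genes called). Mapkapk2, the kinase that stabilizes AU-rich cytokine mRNAs, fell by 1.35 in total RNA (SD 0.27, adjusted p from limma = 0.00936) and by 0.70 in the heavy polysomes (SD 0.54, adjusted p = 0.0442). Its ratios were -1.34, -1.02, -1.34 and -1.69 in total RNA, against 0.09, -0.97, -1.07 and -0.85 in the heavy polysomes. The total RNA call was lost without total RNA array 3 (0.0554). The heavy polysome call was lost without total RNA array 1, 2 or 3 (0.0627, 0.0637 and 0.0750) or heavy polysome array 2, 3 or 4 (0.154, 0.128 and 0.161), it had 0.234 with median centring, and the mean over its probes was -0.33. Tia1, which binds AU-rich elements and represses translation, rose by 0.69 ± 0.23 in total RNA (adjusted p = 0.0171) and by 0.78 ± 0.24 in the heavy polysomes (adjusted p = 0.00606). It was above 0 on all 8 arrays, and the total RNA call was lost without total RNA array 1 or 3 (0.0650 and 0.0866). With median centring both Tia1 calls were lost (0.0605 and 0.0572).

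Of the 15 called values of these list genes, 9 were lost when the 4 arrays of a fraction were fitted alone. In the heavy polysomes these were Cxcl12 (adjusted p from limma = 0.0821), Ccl17 (0.112), Atf3 (0.0821), Irf7 (0.0663), Cebpb (0.0822), Stat3 (0.143), Tnfaip3 (0.130) and Mapkapk2 (0.125). In total RNA it was Csf1r (0.0589). The calls of Egr1 and those of Tnfrsf1b and Tia1 in both fractions passed with the fraction alone, as did the total RNA call of Mapkapk2.

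The genes whose ratios followed a member most closely over the 8 arrays were taken for Csf1, Ccl2 and Ccl7, out of 14472 genes. For Ccl2 these were the array transcript NAP125102-1 (r = 0.983), Dnaaf5 (0.979) and Mrps18c (0.978). For Csf1 they were NAP058846-1 (0.994), Tmem181a (0.984) and Fto (0.983), and for Ccl7 Agps (0.993), Tceal1 (0.985) and Alkbh8 (0.977). These coefficients are the highest of many over 8 arrays that share their slides, and they describe likeness on these arrays only.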

How the data were processed

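RNA of Eif4g3 siRNA cells (Cy5) and control siRNA cells (Cy3) was compared on 8 Agilent whole mouse genome arrays, 4 per fraction. Per the file headers, the deposited scanner tables hold spot and background intensity of both channels, read with Feature Extraction 10.7.3.1 (protocol GE2_107_Sep09) on 7 arrays and 10.5.1.1 (GE2_105_Dec08) on total RNA array 2, where 1989 spots carry other gene names. The values of the deposited matrix are log2 ratios with Cy5 on top, within 0.01 of those of the processed signals for nearly all probes, with array medians from -0.21 to 0.30, so it was not centred. Probe positions are on mm8, and other columns of the deposited tables (names, flags) were used as labels. No spot was saturated, 131 to 241 spots per array flagged as non-uniform or outliers were left out, and the number of arrays limits the precision.

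Background was corrected with normexp (offset 50), ratios were normalized by loess (span 0.3) within arrays and channels by Aquantile between arrays. Spots of a probe were averaged and the brightest probe stood for its gene, named through RefSeq (33026 of 41174 probes matched). A gene was tested if well above background in 1 channel on 3 of 4 arrays of a fraction. Ratios were fitted in limma 3.58.1 (R 4.3.3, with version 1.17.8 of the data.table package) with 1 mean per fraction over all 8 arrays, two-sided, with Benjamini-Hochberg adjustment at 0.05, and control channel levels likewise between fractions. The fits were tested on simulated ratios with independent noise for each gene and array. That simulation held no slide, dye or array effects, so it does not bear on how far these move the calls. Members and lists were chosen with earlier results of these data known, so no list is independent support. From the lists, genes past the threshold in a fraction were named, at most 6 per list, with the 3 genes most alike each of the 3 members of highest signal. Alternatives were other filters, background corrections, normalizations and probe rules, slide and replicate blocks, each fraction alone and each array left out. Promoter windows came from RefSeq (GRCm38.p6).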

Additional observations from a re-analysis of the deposited data

Results flagged for a closer look

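In 144 sets of 4 arrays, made of the ratios and channel levels of the members and of the named list genes, 12 held an array far from the other 3 by Dixon's criterion, which chance alone meets in about 1 set in 20. On heavy polysome array 1 these were the Cxcl1 ratio (-2.74, the others -0.20 to 0.14), the Ccl20 ratio (-0.20, the others 0.11 to 0.16), the control intensity of Csf2 (6.97, the others 5.98 to 6.06) and the intensities of Cebpb in the control (14.34, the others 13.09 to 13.26) and Eif4g3 siRNA (13.38, the others 12.76 to 12.81) channels. On total RNA array 2 they were the control intensities of both Ccl7 probes (13.71, the others 12.21 to 12.37, and 13.20, the others 12.07 to 12.21) and the Eif4g3 siRNA intensity of Cxcl1 (7.39, the others 6.63 to 6.68). The Ccl7 ratio of the brighter probe stood apart on heavy polysome array 3 (-0.91, the others -0.17 to -0.02). The Cxcl12 ratio did on total RNA array 1 (0.81, the others 0.35 to 0.38). On total RNA array 4 the control intensity of Tnfrsf1b (10.97, the others 10.26 to 10.35) and the Eif4g3 siRNA intensity of Atf3 (10.51, the others 8.76 to 8.99) lay apart.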

How the results depend on the processing

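The number of genes called in total RNA, 633, became 1473 with the slide as a random block, 210 with the replicate block, 209 with median centring, 1451 with Feature Extraction's processed signals or the series matrix, and 46 to 1323 when 1 array was left out. In heavy polysome RNA 1291 became 2591 with the slide as a random block, 585 with the replicate block, 196 with median centring, 2050 with processed signals, 2045 with the series matrix, 382 with the 4 arrays fitted alone, and 337 to 1537 without 1 array. Control heavy polysome over total RNA went from 310 to 59 with the replicate block and to 65 to 338 without 1 array. The difference between fractions gave 0 by limma in every setting, with 451 to 1519 genes at an unadjusted p under 0.05. The cause of these shifts was not tested.

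Replicate numbers did not pair the fractions: same-numbered arrays correlated at -0.02, 0.17, -0.11 and -0.30 in their ratio deviations, and 1 of 4 total RNA arrays correlated best with its own number. No member passed with the replicate block, and of the 15 called values of named list genes 9 did not pass with it (adjusted p from 0.0536 to 0.104). Of the same 15, 9 did not pass with each fraction alone, 10 with median centring, 7 with no filter on low signal, and 1 to 10 when 1 array was left out. No called value of a named gene changed sign in any alternative. Values short of the threshold crossed 0 in at least 1 alternative for 2 members in total RNA (Ccl5 and Cxcl1), 2 in heavy polysome RNA (Ccl20 and Csf2), 6 in the difference and 6 in the control ratio of heavy polysome to total RNA. Ccl20 and Csf2, near background, are limited by signal, and as each slide held 1 fraction, fraction and slide cannot be told apart.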
